A study of Mus musculus with 12 samples.

Results

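Mast cells and basophils express granule and receptor genes, some of which both lineages share. A set of 8 genes linked to these lineages was followed in cultured MDSCs, which are immunosuppressive myeloid cells. The 8 genes were chosen by name: Mcpt8, Prss34, Cpa3, Fcer1a, Ms4a2, Hdc, Gzmb, and Il4, out of 35303 gene symbols in the count table. All 8 were in the table and had enough counts to be tested, together with 17676 symbols in all. Bulk poly(A) RNA was sequenced in 12 libraries, 4 in each of 3 groups. MDSC were unmodified wild-type cells. MDSC-NP-Blk were the same cells conjugated with blank PLGA nanoparticles (NPs), and CITED were cells conjugated with PLGA NPs that carry rapamycin, an mTOR inhibitor. The study methods describe marrow of female C57BL/6 mice aged 6 to 10 weeks, cultured with IL-6 and GM-CSF (40 ng/ml each), with harvest of nonadherent cells on day 3 and selection with a CD11b+Gr1+ isolation kit. An azido sugar added on day 1 gave the cells the handle for NP conjugation, and whether the unmodified MDSCs received it was not stated. Cells of all 3 groups then spent 24 hours in IL-6 (40 ng/ml), after which RNA was extracted. The libraries are biological replicates by their titles, and which of them share a marrow pool was not stated, so that p-values measure the spread between these libraries.

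The labels give the CNS as the tissue, although by the methods the cells came from marrow cultures. The RNA held the myeloid markers: the mean normalized count of Itgam (CD11b) was 51965 to 70031 and that of Ly6g 3934 to 4615 over the groups. Between 20604809 and 37855478 counts were assigned to genes per library, and normalized counts below are counts scaled to the mean library with TMM factors. The floor of 3 counts corresponded to a normalized count between 2.07 and 3.83, which covers counting error only. The MDSC-NP-Blk libraries formed 2 pairs: replicates 1 and 4, and replicates 2 and 3, differed less within a pair (chi-square per degree of freedom 5.69 and 5.91) than across pairs (15.7 to 21.8). The comparisons of the 8 genes with MDSC-NP-Blk were therefore repeated without replicates 2 and 3, an alternative chosen after seeing the data, and for other genes a value without them is given where a call was lost. The split did not show which pair was unusual, and a fit without both replicates 1 and 4 was not run. The TMM factors were 1.12 to 1.15 in MDSC and 0.921 to 0.947 in the other groups. With library size alone, the median log2 fold change over all genes against MDSC was -0.323 instead of -0.052 for CITED and -0.286 instead of -0.027 for MDSC-NP-Blk, whereas between the NP groups it was -0.005 instead of 0.

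Basophils and mast cells are armed with the high-affinity IgE receptor, whose alpha chain (Fcer1a) binds IgE and whose beta chain (Ms4a2) amplifies the signal that is passed on by the common gamma chain (Fcer1g). Cross-linking of the receptor releases stored granule contents, among them serine proteases, carboxypeptidase A3 (Cpa3), and histamine, which is made from histidine by the enzyme encoded by Hdc. In the mouse, Mcpt8 and Prss34 encode proteases typical of basophils, Cpa3 and Hdc are used by both lineages, Il4 encodes the type 2 cytokine interleukin-4, and Gzmb encodes granzyme B, best known from cytotoxic lymphocytes. Both lineages arise in the bone marrow from progenitors that depend on the transcription factor GATA2.

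The genes lie on 7 chromosomes (GENCODE gene models, GRCm39). Mcpt8 (chr14:56319623-56322730) and Gzmb (chr14:56496295-56499717) share the chymase and granzyme locus on the minus strand of chromosome 14. Prss34 (chr17:25517368-25519142) lies on the plus strand beside tryptase genes. The others are on minus strands, namely Cpa3 (chr3:20269774-20296362), Fcer1a (chr1:173048851-173054781), Ms4a2 (chr19:11592887-11601083), Hdc (chr2:126435558-126461318), and Il4 (chr11:53493809-53509496). Canonical transcripts were 590 bases (Il4) to 2756 bases (Ms4a2) long. Of all 31-base stretches of the Ms4a2 transcript, 4.26% also occurred in another gene, as did 1.35% of those of Gzmb. Kif3a overlaps Il4 on the opposite strand, and whether the counting used strand was not stated.

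The promoters of the IgE receptor chains and of the granule genes with a GATA word are shown because GATA2 is a shared regulator of these lineages. The words searched were AGATAA and TGATAA, each also with G as its last letter, on both strands and in the 250 bases before the canonical start site, read from GRCm39 in the direction of the gene. Capitals mark the matches. The windows are chr17:25517118-25517367 on the plus strand for Prss34, and on the minus strand chr3:20296363-20296612 for Cpa3, chr1:173054782-173055031 for Fcer1a, and chr19:11601084-11601333 for Ms4a2.
Prss34: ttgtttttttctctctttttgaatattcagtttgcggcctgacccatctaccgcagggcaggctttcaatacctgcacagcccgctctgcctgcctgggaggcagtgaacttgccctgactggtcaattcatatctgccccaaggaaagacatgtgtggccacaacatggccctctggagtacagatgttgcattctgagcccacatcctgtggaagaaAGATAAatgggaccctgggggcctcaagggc
Cpa3: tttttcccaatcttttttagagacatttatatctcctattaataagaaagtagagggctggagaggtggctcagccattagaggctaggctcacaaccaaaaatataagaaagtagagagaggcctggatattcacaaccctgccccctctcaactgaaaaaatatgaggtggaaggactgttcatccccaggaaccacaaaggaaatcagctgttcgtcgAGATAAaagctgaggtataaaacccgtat
Fcer1a: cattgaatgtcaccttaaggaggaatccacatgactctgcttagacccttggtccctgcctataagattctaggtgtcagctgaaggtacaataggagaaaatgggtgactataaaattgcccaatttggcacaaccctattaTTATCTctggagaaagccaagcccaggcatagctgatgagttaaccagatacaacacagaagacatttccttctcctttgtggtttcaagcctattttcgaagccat
Ms4a2: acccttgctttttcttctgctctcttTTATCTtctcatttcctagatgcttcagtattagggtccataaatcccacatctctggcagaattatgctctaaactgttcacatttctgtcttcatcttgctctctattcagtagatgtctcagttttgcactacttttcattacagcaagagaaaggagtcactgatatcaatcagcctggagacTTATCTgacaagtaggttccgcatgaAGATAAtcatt
The word began at position -31 in Prss34, counted back from the start site, at position -29 in Cpa3, and at position -107 in Fcer1a. Ms4a2 held 3 of them, at positions -224, -37, and -11. The windows of the other 4 genes held none, and of these Mcpt8 and Hdc were among the genes that were lower in CITED. Among 21770 protein-coding promoters of the same length, 26.2% held at least 1 such word and 6.02% held 2 or more. The STAT word TTCNNNGAA was present once, in Gzmb at position -37, against 7.7% of all promoters. The RUNX word TGTGGT (both strands) was found at positions -188 and -139 in Mcpt8, at -167 and -108 in Gzmb, at -56 in Cpa3, and at -29 in Fcer1a, against 13% of promoters. The forward word TATAAA occurred at position -14 in Cpa3 and -140 in Fcer1a, against 8.03% of promoters. These are matches of letters and no binding was measured.

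The levels of the 8 genes spanned a wide range in these cells. Per kilobase of transcript, the mean normalized count over the 12 libraries was highest for Prss34 (4889 ± 1447, SD), which ranked 365 of 17648 genes, followed by Mcpt8 (2796 ± 713, rank 604) and Hdc (1193 ± 412, rank 1325). Cpa3 stood at 597 ± 109 per kilobase and Ms4a2 at 152 ± 52.8. Fcer1a, the ligand-binding chain of the receptor, was near the middle of all tested genes at 60.4 ± 24, rank 8673. Il4 (24.9 ± 8.58) and Gzmb (5.55 ± 3.5) were at the low end. Within each group, neighbors in this order were separated by more than their SDs, except for Fcer1a and Il4 in CITED, at 34.7 ± 11.8 and 24.7 ± 8.17 per kilobase, whose libraries overlapped. Together the 8 genes took 0.0317% to 0.033% of all counts in CITED, compared to 0.0592% to 0.0634% in unmodified cells and 0.0594% to 0.0687% with blank NPs.

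In CITED, 6 of the 8 genes were down-regulated compared to MDSC: Mcpt8, Prss34, Cpa3, Fcer1a, Ms4a2, and Hdc, by 13.3% to 54.6% (edgeR quasi-likelihood test, adjusted p below 0.05). By the same test 22.2% of all genes were lower. Ms4a2 alone also passed the fold threshold of 1 on the log2 scale, as did 6.70% of all genes in that direction. Gzmb and Il4 did not pass. The median log2 fold change of the 8 genes was -0.50, against -0.05 over all genes tested. In bulk RNA, fewer cells that express these genes and less RNA per cell cannot be told apart.

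Conjugation of blank NPs went with a smaller shift in the other direction. Compared to MDSC, 4 of the 8 genes (Mcpt8, Prss34, Cpa3, and Hdc) were higher in MDSC-NP-Blk at an adjusted p below 0.05, against 19.9% of all genes, and none passed the fold threshold, which 4.74% of all genes passed in either direction. The median log2 fold change was 0.29, against -0.03 over all genes. This count depended on the normalization, since with library size alone Hdc was the only gene of the 8 that was higher and Ms4a2 was lower (log2 fold change -0.48, adjusted p = 0.0015). Without MDSC-NP-Blk replicates 2 and 3, Mcpt8 (0.25), Prss34 (0.22), and Hdc (0.48) passed as higher and Ms4a2 as lower (-0.39, edgeR adjusted p = 0.024), whereas Cpa3 (0.17) and Fcer1a (0.04) did not pass.

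CITED against MDSC-NP-Blk, which share the NP and differ in its rapamycin load, gave the median farthest from 0. Mcpt8, Prss34, Cpa3, Fcer1a, Ms4a2, and Hdc were lower in CITED, by 31.1% to 55.4%, against 11.4% of all genes. Prss34, Hdc, and Fcer1a passed the fold threshold, as did 2.00% of all genes in that direction. The median log2 fold change was -0.91, against 0.00 over all genes. The 3 comparisons share libraries and are not independent of each other. Without MDSC-NP-Blk replicates 2 and 3, all 6 were lower at edgeR adjusted p values of at most 0.019, and Hdc (-0.87) no longer passed the fold threshold. The others were then at -0.90 (Mcpt8), -1.05 (Prss34), -0.39 (Cpa3), -1.05 (Fcer1a), and -0.76 (Ms4a2).

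**Figure D1:**
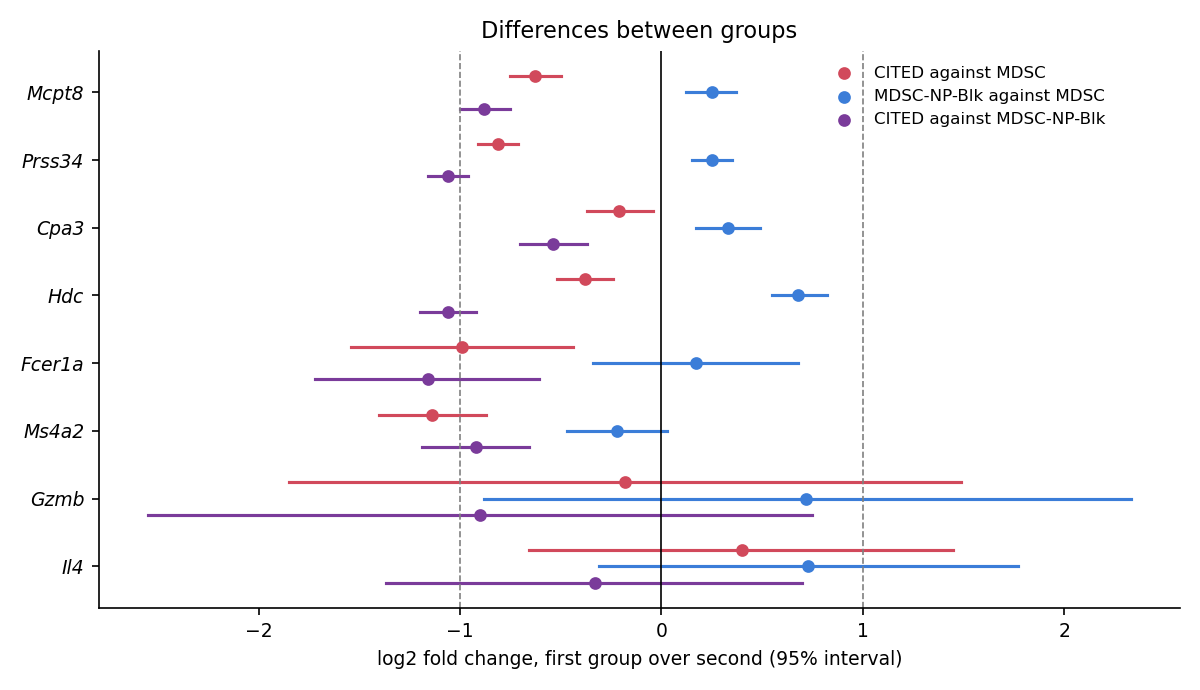
Log2 fold changes of the 8 genes (points) with 95% intervals (lines) in the 3 comparisons. Dashed lines mark log2 fold changes of -1 and 1. For 6 genes the intervals of both CITED comparisons lie below 0, whereas those of Gzmb and Il4 span 0 in all comparisons.

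Among the proteases, Mcpt8 encodes a granule protease by which mouse basophils are recognized. Its normalized counts were 2402, 2714, 2480, and 2301 in MDSC (replicates 1 to 4). With blank NPs they were 3180, 2841, 2949, and 2784, and in CITED they were 1662, 1560, 1700, and 1482. The 3 groups did not overlap, with CITED lowest and MDSC-NP-Blk highest. Mcpt8 fell by 35.3% in CITED compared to MDSC (log2 fold change -0.63 ± 0.0618, SE, n = 4 per group; edgeR adjusted p = 1.2e-10) and by 45.5% compared to MDSC-NP-Blk (-0.88 ± 0.0619, adjusted p = 3.1e-13). The difference between MDSC-NP-Blk and MDSC was 0.25 ± 0.0605 (edgeR adjusted p = 0.0011). That difference rested on the TMM factors: it was -0.01 (adjusted p = 0.88) with library size alone and 0.02 (adjusted p = 0.81) after a correction for transcript length that was added after seeing the data.

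Prss34 encodes a tryptase-like protease of basophils and was the most abundant of the 8 transcripts. Its normalized counts were 6336, 6861, 6313, and 6521 in MDSC (replicates 1 to 4). The MDSC-NP-Blk libraries had 7944, 7797, 7743, and 7414, and in CITED they were 3935, 3781, 3616, and 3484. As for Mcpt8, no library of one group reached the range of another. Prss34 was 43.1% lower in CITED than in MDSC (-0.81 ± 0.0497, edgeR adjusted p = 8.4e-16) and 52.1% lower than in MDSC-NP-Blk (-1.06 ± 0.0498, adjusted p = 1e-17). Against MDSC, MDSC-NP-Blk was higher by 0.25 ± 0.0489 on the log2 scale (edgeR adjusted p = 8.4e-05), and this value too became -0.01 (adjusted p = 0.84) with library size alone and 0.07 (adjusted p = 0.28) with the length correction.

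Cpa3 encodes the granule carboxypeptidase that trims peptides and is stored in mast cells and basophils alike. Its normalized counts were 861, 869, 838, and 818 in MDSC (replicates 1 to 4). Blank NP libraries stood at 1031, 1184, 1146, and 890, and in CITED they were 714, 806, 709, and 708. The groups did not overlap, although CITED replicate 2 lay close to the lowest MDSC library. Cpa3 changed the least of the 6 genes, with a fall of 13.3% in CITED compared to MDSC (-0.21 ± 0.0811, edgeR adjusted p = 0.037). This call did not hold in 6 of the 12 fits that each left out 1 library, namely without MDSC replicate 1, 2, or 3 or without CITED replicate 1, 3, or 4, where the adjusted p reached 0.093. Compared to MDSC-NP-Blk, Cpa3 was lower by 31.1% in CITED (-0.54 ± 0.0809, edgeR adjusted p = 3.3e-06), and it was -0.39 without MDSC-NP-Blk replicates 2 and 3. MDSC-NP-Blk exceeded MDSC by 0.33 ± 0.0795 (edgeR adjusted p = 0.00091), which was 0.07 (adjusted p = 0.52) with library size alone, 0.17 (adjusted p = 0.097) with the length correction, and 0.17 (adjusted p = 0.14) without MDSC-NP-Blk replicates 2 and 3.

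**Figure D2:**
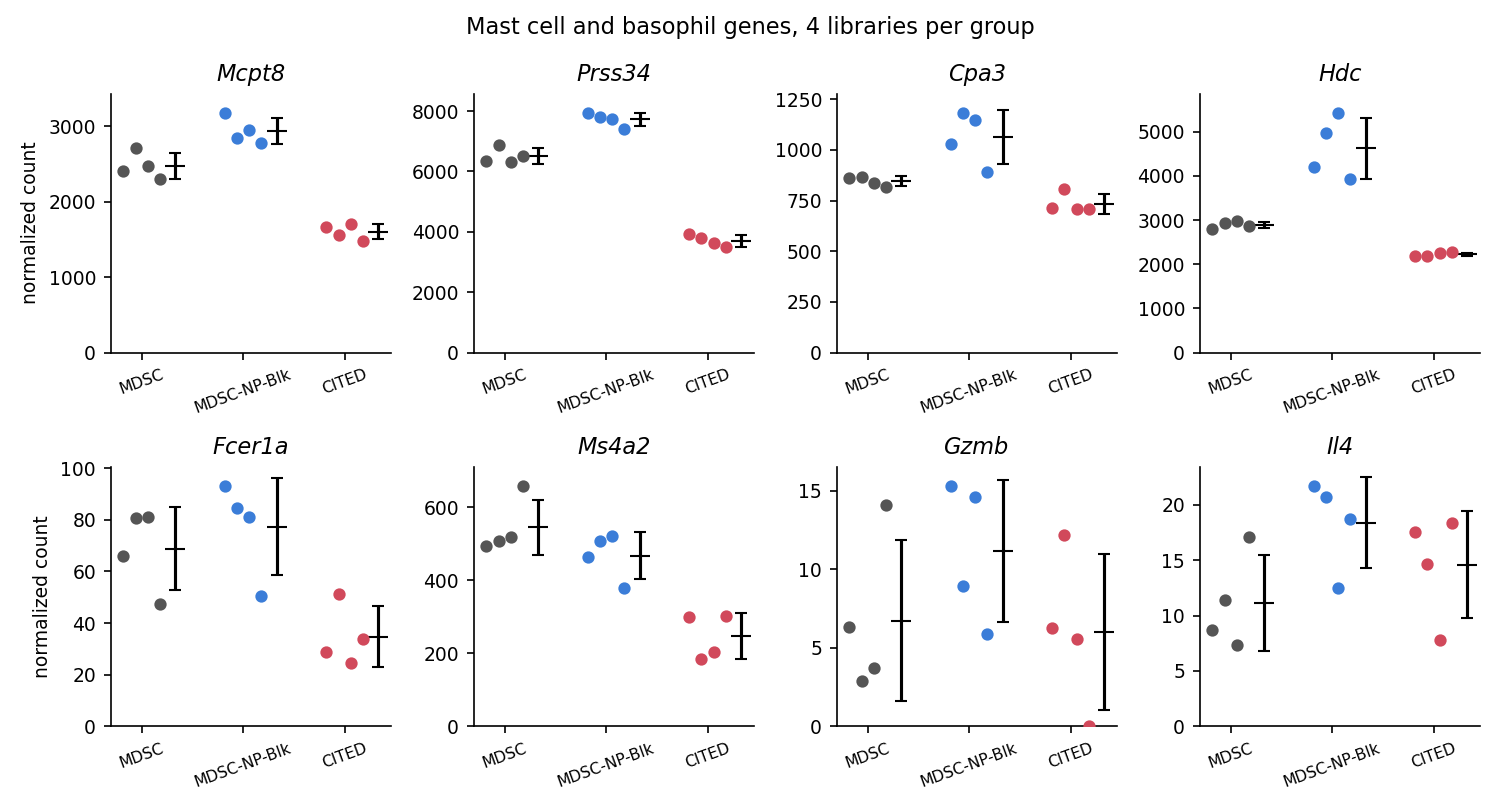
Normalized counts of the 8 genes in each library (points), with the mean and SD of the 4 libraries of a group beside them (bars); each vertical axis starts at 0. CITED lies lowest for Mcpt8, Prss34, Cpa3, Hdc, and Ms4a2, and MDSC-NP-Blk lies highest for Mcpt8, Prss34, Cpa3, and Hdc.

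The alpha chain of the IgE receptor, Fcer1a, was detected at 22 to 123 counts per library. Its normalized counts were 66.1, 80.9, 81.1, and 47.3 in MDSC (replicates 1 to 4). With blank NPs they were 93.1, 84.8, 81.3, and 50.3, and in CITED they were 28.8, 51.4, 24.4, and 33.9. Replicate 4 was the lowest library in both MDSC and MDSC-NP-Blk and was below CITED replicate 2 in each case, so that CITED overlapped with both groups. Fcer1a was 49.8% lower in CITED than in MDSC (-0.99 ± 0.27, 95% interval -1.54 to -0.44, edgeR adjusted p = 0.0025) and 55.4% lower than in MDSC-NP-Blk (-1.16 ± 0.271, adjusted p = 0.0013). The first of these lay just short of the fold threshold and passed it in 8 of 22 alternatives, among them the fits without MDSC replicate 1 (-1.01), without MDSC replicate 4 (-1.13), and without CITED replicate 2 (-1.24). MDSC-NP-Blk and MDSC differed by 0.17 (95% interval -0.34 to 0.68, edgeR adjusted p = 0.64), and the sign turned with library size alone (-0.09) and with the length correction (-0.02).

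Ms4a2 encodes the beta chain, and its values followed another order than those of the proteases. The normalized counts were 494, 508, 519, and 657 in MDSC (replicates 1 to 4). MDSC-NP-Blk gave 462, 507, 520, and 379, and in CITED they were 298, 183, 202, and 302. CITED lay below both groups without overlap, whereas MDSC and MDSC-NP-Blk overlapped. Ms4a2 was down-regulated by 54.6% in CITED compared to MDSC (-1.14 ± 0.13, edgeR adjusted p = 3.4e-09) and by 47.2% compared to MDSC-NP-Blk (-0.92 ± 0.131, adjusted p = 1.2e-06), which passed the fold threshold without MDSC-NP-Blk replicate 4 (-1.01), CITED replicate 1 (-1.02), or CITED replicate 4 (-1.04). Between MDSC-NP-Blk and MDSC the log2 fold change was -0.22 (95% interval -0.47 to 0.03, edgeR adjusted p = 0.18). The gamma chain, Fcer1g, which myeloid cells also use with other receptors, moved the opposite way: its mean normalized count was 17284 ± 970 in CITED and 15305 ± 895 with blank NPs, compared to 9159 ± 636 in unmodified cells (named after its values were seen; 0.92 ± 0.0529 for CITED against MDSC, edgeR adjusted p = 1.8e-16).

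Hdc encodes histidine decarboxylase, the enzyme that makes histamine, and showed the largest response to blank NPs among the 6 genes that were lower in CITED. Bulk RNA does not show which cells of the culture held this transcript. The normalized counts were 2792, 2933, 2970, and 2863 in MDSC (replicates 1 to 4). The libraries with blank NPs had 4203, 4964, 5432, and 3922, and in CITED they were 2177, 2196, 2251, and 2268. No groups overlapped, and MDSC-NP-Blk replicates 2 and 3 were above replicates 1 and 4, the split seen over all genes. Hdc rose by 60.4% in MDSC-NP-Blk compared to MDSC (0.68 ± 0.0671, edgeR adjusted p = 2.3e-10), and by less, though still past the test, with library size alone (0.42, adjusted p = 3.7e-06) and without replicates 2 and 3 (0.48, adjusted p = 1e-09). It fell by 23% in CITED compared to MDSC (-0.38 ± 0.068, edgeR adjusted p = 1.6e-05) and by 52% compared to MDSC-NP-Blk (-1.06 ± 0.0681, adjusted p = 3e-14; -0.97 without MDSC-NP-Blk replicate 3).

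Gzmb and Il4 were too low for a firm statement. Gzmb had 0 to 14 counts per library, with normalized counts of 6.29, 2.85, 3.68, and 14.1 in MDSC (replicates 1 to 4). With blank NPs they were 15.3, 8.96, 14.6, and 5.85, and in CITED they were 6.27, 12.2, 5.55, and 0, where the 0 of replicate 4 allows up to 2.9. All groups overlapped. No difference in Gzmb was detectable at this depth: relative to MDSC the log2 fold change was -0.18 (95% interval -1.85 to 1.49) in CITED and 0.72 (-0.88 to 2.33) in MDSC-NP-Blk, and between the NP groups it was -0.90 (-2.55 to 0.75), with edgeR adjusted p values of 0.9, 0.5, and 0.49.

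Il4 had 7 to 30 counts per library. The normalized counts were 8.65, 11.4, 7.37, and 17.1 in MDSC (replicates 1 to 4). In MDSC-NP-Blk they were 21.7, 20.7, 12.5, and 18.7, and in CITED they were 17.6, 14.7, 7.77, and 18.4. All groups overlapped, and the intervals were wide: relative to MDSC the log2 fold change was 0.40 (95% interval -0.66 to 1.45) in CITED and 0.73 (-0.31 to 1.77) in MDSC-NP-Blk, and between the NP groups it was -0.33 (-1.37 to 0.70), with edgeR adjusted p values of 0.57, 0.28, and 0.72. Both genes encode products that are induced on activation, and their transcripts stood far below those of the granule proteases in every library.

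A ratio of counts within a library does not depend on the scaling between libraries, and each transcript was therefore set against Mcpt8. Such a ratio can still hold an effect of transcript length, which was not tested for the ratios. Mcpt8 has 836 bases, Hdc 2722, and Ms4a2 2756. Prss34 amounted to 232% ± 13 (SD, n = 4) of the Mcpt8 count in CITED, 263% ± 10.3 with blank NPs, and 264% ± 14 in unmodified cells. The latter did not differ detectably (two-sided exact permutation test, p = 0.971), whereas no CITED library reached the range of the other groups (213% to 242% against 250% to 283%). Relative to Mcpt8, Cpa3 stood at 46% ± 4.57 in CITED, 34.3% ± 1.78 in MDSC, and 36.2% ± 4.81 in MDSC-NP-Blk. Hdc stood at 139% ± 10.1 of Mcpt8 in CITED, 158% ± 25.3 with blank NPs, and 117% ± 6.92 in unmodified cells, so that both NP groups lay above MDSC. Ms4a2 was 15.5% ± 4.35 in CITED, 15.9% ± 2.16 with blank NPs, and 22.2% ± 4.35 in unmodified cells, with overlap between CITED and both groups. Fcer1a stood at 2.19% ± 0.816 in CITED, 2.62% ± 0.551 with blank NPs, and 2.76% ± 0.517 in unmodified cells, with overlap of all groups. With 4 libraries per group the smallest two-sided p of the exact permutation test is 0.0286, and after adjustment over the 15 tests of ratios the lowest was 0.0612, so that none passed 0.05.

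**Figure D3:**
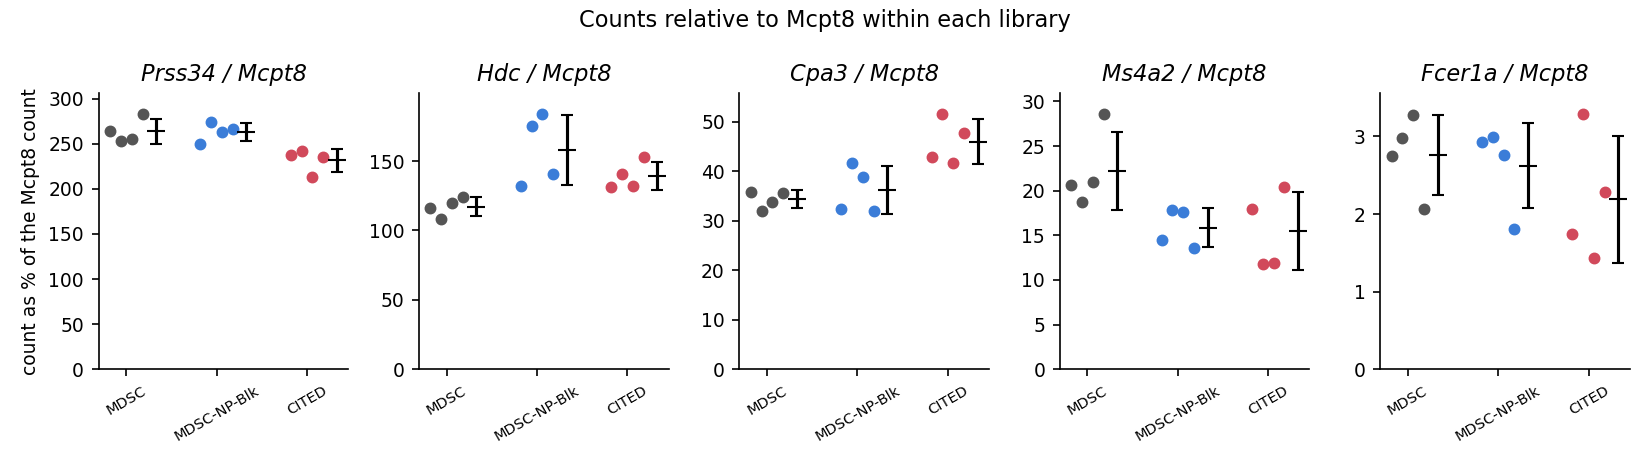
Counts of 5 transcripts as a percent of the Mcpt8 count of the same library (points), with mean and SD of the 4 libraries (bars); each vertical axis starts at 0. The Prss34 ratio is alike in MDSC and MDSC-NP-Blk (264% and 263%) and lower in CITED (232%), whereas the Cpa3 ratio is highest in CITED (46%).

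Over the 12 libraries the log2 CPM values of Mcpt8 and Prss34 had a Pearson r of 0.98, those of Cpa3 and Hdc 0.95, and those of Mcpt8 and Hdc 0.87. Ms4a2 was less like Cpa3 (0.57) and Hdc (0.61), and Il4 had r values of 0.04 to 0.29 with the 6 genes that were lower in CITED. These values describe 3 separated groups of 4 libraries and contain the group differences. Among 10556 genes with a mean normalized count of at least 50, the genes most like Mcpt8 were Gm4739 (r = 0.988), Prss34 (0.984), Tkt (0.976), Arhgap15 (0.969), and Myl10 (0.969). In likeness to Mcpt8, Hdc ranked only 170, Cpa3 288, Fcer1a 291, and Ms4a2 490. Those most like Prss34 were Clec12a (0.988), Mcpt8 and Gm4739 (0.984 each), Myl10 and Rpl3 (0.981 each). Cpa3 was most like Serpina3g (0.966), Hdc (0.951), Olfm4 (0.940), Apobec3 (0.927), and Cd200r3 (0.913), the last a receptor of basophils and mast cells. Hdc was most like Olfm4 (0.982), followed by Cytip, Dapp1, Chil3, and Apobec3 (0.964 to 0.968). For Ms4a2 the list was Cbfa2t3 (0.953), Paics, Rcc2, Gimap9, and Impdh2 (0.944 to 0.949), and for Fcer1a it was Blmh (0.915), Mipep, Vrk2, Ube2e1, and Cd79b (0.878 to 0.910). For Il4 it was Bcl2l14 (0.841), Cebpg, Nfu1, Mtnap1, and S100a13 (0.820 to 0.838).

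The chymase and granzyme locus around Mcpt8 was largely silent. Of the mast cell proteases at lower coordinates, Cma2, Mcpt9, Mcpt2, and Mcpt4, whose start sites lie at -134.3 to -23.0 kb in chromosome coordinates relative to that of Mcpt8, had 0 counts in all 12 libraries, Mcpt1 had 1 count in total, and Cma1 had 5. On the other side Ctsg, which encodes the neutrophil protease cathepsin G, starts 17.3 kb away and was strongly expressed, with mean normalized counts of 1372 ± 147 in CITED, 3448 ± 254 with blank NPs, and 8898 ± 263 in unmodified cells. Ctsg was thus lower in MDSC-NP-Blk than in MDSC (-1.37 ± 0.0604, edgeR adjusted p = 5.7e-19), and so it was in CITED (-2.70 ± 0.0644, adjusted p = 1.1e-26). Of the list of 8 carboxypeptidases and proteases that holds Ctsg, 6 were tested, Ctsg was the only one called in CITED against MDSC, and Cpa1 and Cpb1 were at 0 in all libraries. The granzyme genes between Ctsg and Gzmb had at most 3 counts each over the 12 libraries. Next to Prss34, the tryptase-like genes Prss28, Prss29, Tpsab1, Tpsb2, and Tpsg1 (10.2 to 70.9 kb) had 29, 2, 6, 92, and 71 counts in total. Ms4a2 lies between Ms4a6d, which was higher in CITED than in MDSC (log2 fold change 0.98), and Ms4a3, which was lower (-1.98). These neighbors of Prss34 and Ms4a2 were named after their values were seen.

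**Figure D4:**
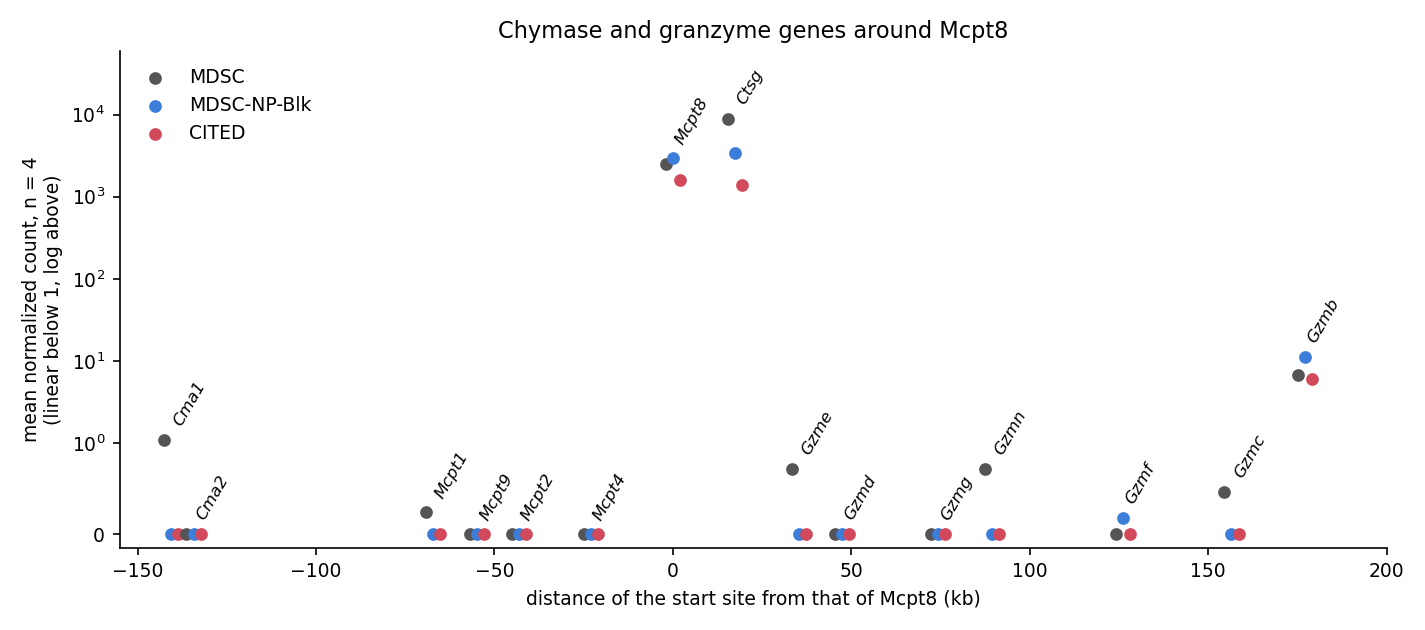
Mean normalized count (n = 4 libraries; linear below 1, log above) of the chymase and granzyme genes against the distance of their start site from that of Mcpt8 in kb; points of the groups are set 2 kb apart for legibility. Mcpt8 and Ctsg stand at 1372 or more in all groups, Gzmb lies between 6.01 and 11.2, and all other genes lie below Gzmb.

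Other genes typical of basophils did not all follow the 8 genes. Of 10 such genes tested, 5 were lower and 3 higher in CITED than in MDSC, and 7 were lower and 1 higher than in MDSC-NP-Blk. The median log2 fold changes were -0.33 and -0.48. Without MDSC-NP-Blk replicates 2 and 3, 5 instead of 7 were lower in CITED than in MDSC-NP-Blk. Among all 17676 genes, 22.2% were lower in CITED than in MDSC and 7862 passed in either direction, and 11.4% were lower in CITED than in MDSC-NP-Blk. The counts of the lists below stand beside these shares. Itga2 (CD49b) passed the fold threshold as lower (-1.19 ± 0.312, edgeR adjusted p = 0.0018), though not with the length correction (-0.88), at mean normalized counts of 64.2 in MDSC and 27.9 in CITED. Il3ra, the IL-3 receptor alpha chain, and Ifitm1, an interferon-induced membrane protein, passed it as higher (1.53 and 1.24, or 1.25 and 0.97 with library size alone), and both are also expressed by other myeloid cells. Of genes named after their values were seen, Cyp11a1, a steroidogenic enzyme found in basophils, fell from a mean normalized count of 1934 ± 112 to 1227 ± 57.9 (-0.66, edgeR adjusted p = 2.8e-11), and Cd200r3 fell from 408 ± 24.9 to 331 ± 21.2 (-0.30, adjusted p = 0.0098, or 0.099 with the length correction). Hgf fell by 0.80 on the log2 scale and Ptger3 by 0.61. Nfil3 was higher in CITED than in MDSC (0.55, edgeR adjusted p = 2.9e-08). Grm6 (-0.35) and Cd69 (-0.13) did not pass (edgeR adjusted p = 0.33 and 0.41). Nfil3, Grm6, and Cd69 were also named after their values were seen. In MDSC-NP-Blk against MDSC, 4 of the 10 genes were higher and 0 lower by edgeR, where 19.9% of all genes were higher. With library size alone 3 of the 10 were higher and 2 lower.

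Genes that define mature mast cells were mostly absent. Of 15 such genes, 6 (Cma2, Mcpt2, Mcpt4, Mcpt9, Mrgprb1, and Mrgprb2) were at 0 in all libraries and 8 had enough counts to be tested. In CITED compared to MDSC 2 were higher and 2 lower (2 and 3 with library size alone), and the summed normalized count of the list was 2650 to 2853 in CITED, 3111 to 3772 with blank NPs, and 2578 to 2794 in unmodified cells. Tpsb2 was higher in CITED than in MDSC (2.50 ± 0.861, edgeR adjusted p = 0.017), but at 1 to 4 counts per library in MDSC and 3 to 26 in CITED. Kit, the stem cell factor receptor, had mean normalized counts of 1149 ± 81.1 in CITED, 1778 ± 147 with blank NPs, and 1269 ± 125 in unmodified cells. Kit was higher in MDSC-NP-Blk than in MDSC (0.49, edgeR adjusted p = 1.1e-06) and lower in CITED than in MDSC-NP-Blk (-0.63, adjusted p = 2.9e-08), and did not pass between CITED and MDSC (-0.14, adjusted p = 0.13), where it did with library size alone (-0.42, adjusted p = 2.3e-05) and where its sign turned with the length correction (0.05, adjusted p = 0.57). Slc18a2, which loads amines such as histamine into granules, and Rab27b, which serves granule release, were lower in CITED than in MDSC (-0.60 and -0.73), whereas Mitf was higher (0.54). Kit, Slc18a2, Rab27b, and Mitf were named after their values were seen.

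The signaling machinery below the IgE receptor was not lower as a group. Of 16 genes, 9 were higher and 4 lower in CITED than in MDSC. Among all 17676 genes, 7862 passed in either direction and 22.2% were lower. The median log2 fold change of the 16 was 0.30, and 0 passed the fold threshold. With library size alone the split was 7 higher and 7 lower. Many of these products serve other myeloid receptors as well. Named after their values were seen, Orai1, a calcium channel subunit, and the kinases Lyn and Syk were higher in CITED (0.86, 0.56, and 0.43), whereas the kinase Fyn and the phospholipase Plcg1 were lower (-0.68 and -0.42).

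Among 7 tested genes that handle or sense histamine, 4 were lower and 1 higher in CITED than in MDSC, where 22.2% of all genes were lower. Slc22a3, a transporter that takes up histamine, fell from a mean normalized count of 89.6 ± 5.76 to 33.5 ± 8.65 (-1.42 ± 0.273, edgeR adjusted p = 4.4e-05). The histamine-degrading amine oxidase Aoc1 fell from 23.4 ± 5.66 to 4.85 ± 4.17 (-2.28 ± 0.716, edgeR adjusted p = 0.0085). Aoc1 had only 19 to 29 counts per library in MDSC and 0 to 8 in CITED. The gene for the other degrading enzyme, Hnmt, was higher (0.89, adjusted p = 4e-09; named after its value was seen). Receptor Hrh3 was at 0 in all libraries.

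Apart from Il4, the listed type 2 and IL-3 family cytokines were nearly absent. Il3, Il9, and Il25 were at 0 in all libraries, and Il13, which starts 16.0 kb from Il4, had 0 to 11 counts per library. Il33 was lower in CITED than in MDSC (-2.20, edgeR adjusted p = 0.046), a call lost with the length correction (adjusted p = 0.052), and Tslp was lower in MDSC-NP-Blk than in MDSC (-3.47, adjusted p = 0.032), a call lost without MDSC-NP-Blk replicates 2 and 3 (adjusted p = 0.15), with at most 22 counts of Il33 and 11 of Tslp in any library. Of 5 such cytokines tested, 1 (Il33) was lower and 0 higher in CITED than in MDSC by edgeR. A list of cytokine receptors, which holds more than the receptors for these cytokines, behaved differently. Of 14 tested, 10 were higher and 3 lower in CITED than in MDSC. Among all 17676 genes, 7862 passed in either direction and 22.2% were lower. Il3ra (1.53), Crlf2, a subunit of the TSLP receptor (1.47), and Csf2rb2 (1.07, or 0.80 with library size alone) passed the fold threshold. The 3 that were lower were Il1rl1, the IL-33 receptor (-0.32; -0.12 with an adjusted p of 0.37 after the length correction), and the IL-18 receptor subunits Il18r1 (-0.69) and Il18rap (-0.41), named as a count of 3 after their values were seen. Among granzymes and their partners, Srgn, which encodes the granule proteoglycan serglycin, was higher in CITED (1.06; 0.79 with library size alone and 0.99 with the length correction) and in MDSC-NP-Blk (1.07) than in MDSC. Of 12 genes of that list tested, 2 were higher and 0 lower in CITED than in MDSC by edgeR (2 and 1 with library size alone). In that comparison 7862 of all 17676 genes passed in either direction. Gzmd and Gzmg were at 0.

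Of 15 transcription factors of these and neighboring lineages, 6 were higher and 4 lower in CITED than in MDSC. Among all 17676 genes, 7862 passed in either direction and 22.2% were lower. With library size alone 3 of the 15 were higher and 6 lower. Gfi1, a transcriptional repressor that acts in granulocyte development, fell from a mean normalized count of 1661 ± 140 to 380 ± 57.9 (-2.12 ± 0.0903, edgeR adjusted p = 5.7e-20). Gfi1b, its relative in erythroid and megakaryocytic cells, rose from 74.1 ± 10.5 to 167 ± 17.6 (1.18 ± 0.167, edgeR adjusted p = 3e-07, and a log2 fold change of 0.90 with library size alone). Gata2, singled out for its role in basophils and mast cells, had mean normalized counts of 1122 ± 84.6 in CITED, 1463 ± 77.7 with blank NPs, and 1234 ± 37.5 in unmodified cells. Between CITED and MDSC it did not pass (-0.14, edgeR adjusted p = 0.1), although it did with library size alone (-0.41, adjusted p = 3.9e-06), and it was lower in CITED than in MDSC-NP-Blk (-0.38, adjusted p = 4e-05). Its difference between MDSC-NP-Blk and MDSC was 0.24 (adjusted p = 0.003) and turned to -0.02 with library size alone.

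Markers of eosinophils and of B cells moved in the same libraries, where 22.2% of all genes were lower in CITED than in MDSC. Of 9 eosinophil genes tested, 6 were lower and 1 higher in CITED than in MDSC (6 and 0 with library size alone), and the summed normalized count of the list was 11098 to 11522 in CITED, 26602 to 32272 with blank NPs, and 34252 to 40768 in unmodified cells. Epx, the eosinophil peroxidase gene, fell from 19824 ± 1878 to 3740 ± 200 (-2.41 ± 0.074, edgeR adjusted p = 1.1e-23). Ear1 fell by 3.11 on the log2 scale, and Prg2, the major basic protein gene, fell by 1.27. Siglecf was the gene that was higher (0.30, edgeR adjusted p = 0.037), and Ccr3 and Il5ra did not pass (edgeR adjusted p = 0.31 and 0.12). Siglecf, Ccr3, and Il5ra were named after their values were seen. Of 4 B cell genes all were lower (summed normalized count 135 to 199 in MDSC and 36.4 to 46.6 in CITED). Of 12 tested T and NK cell genes 1 was lower, Nkg7 (-2.28), and Ncr1 was at 0. Only 2 of the 12, Nkg7 and Cd3d, had a mean normalized count of at least 10. Cd3d, named after its value was seen, did not pass (0.24, edgeR adjusted p = 0.67). Megakaryocyte and erythroid genes were not lower as a group (1 of 9 higher and 1 lower, or 1 and 2 with library size alone and 1 and 0 with the length correction), and plasmacytoid dendritic cell genes included 2 of 3 that were lower (1 with the length correction). Of 8 MDSC genes, 4 were higher and 2 lower (3 and 4 with library size alone), with Csf3r at 1.54 and Ly6c1 at -1.04. Ly6c1 had only 18 to 47 counts per library in MDSC and 9 to 24 in CITED. Ly6c2, named after its values were seen, fell from a mean normalized count of 25702 ± 511 to 20232 ± 1292 (-0.35). The part of these shifts in the changes of the 8 genes was not tested.

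**Figure D5:**
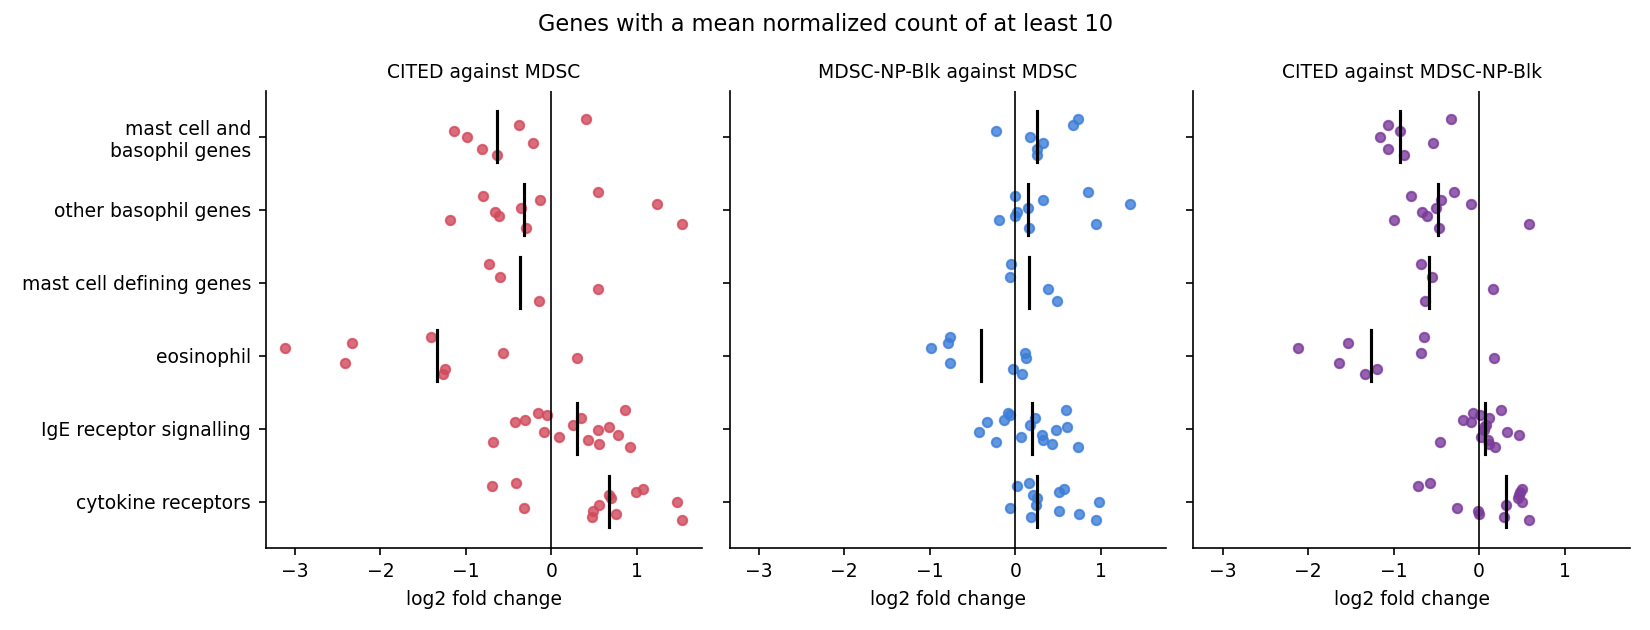
Log2 fold changes of genes with a mean normalized count of at least 10 in 6 gene lists (points) and the median of each list (vertical bars), for each comparison; Gzmb falls below this limit. In both CITED comparisons the mast cell and basophil genes lie mostly below 0, as do eosinophil genes, whereas most cytokine receptors lie above 0.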

How the data were processed

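Bulk poly(A) RNA-seq of 12 libraries was analyzed, with the group and replicate number of each taken from its title. The values are counts without normalization: the authors deposited integers for each symbol, estimated from paired-end reads of 150 bases with Salmon 1.4.0 and tximport in R 4.3.2 against GENCODE transcripts of GRCm39 (release not given in the sources used here). One line had no symbol and 0 counts and was dropped. All 17676 symbols whose counts reached 2 over the libraries were tested with edgeR 4.0.16 in R 4.3.3 (TMM factors, quasi-likelihood F test, group as the only term, 12 libraries together). The p-values were corrected over all these symbols (Benjamini-Hochberg). The fold threshold was an absolute log2 fold change of 1. Normalized counts are counts divided by TMM-scaled library size and multiplied by its mean. SEs were derived from the F statistic, and 95% intervals from the t distribution with edgeR's total degrees of freedom.

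The 8 genes, the gene lists, and the tests were chosen with earlier results of these data known. Genes of other lists were named by a rule (up to 3 per direction past both thresholds for CITED against MDSC, up to 2 in the other comparisons, and genes at 0; for likeness, the 5 highest r), and those outside it are marked as named or chosen after their values were seen, as were Itgam and Ly6g. Alternatives were RLE factors, library size alone, DESeq2 1.42.0, no filter, filterByExpr, robust estimation, the 8 libraries of a comparison, a replicate block, and fits without 1 library. Others were added after seeing the data: a loess correction (span 0.5) for transcript length and the omission of MDSC-NP-Blk replicates 2 and 3. Gene models and promoters came from GENCODE release 39 (GRCm39). Figures were drawn with matplotlib 3.10.9 in Python 3.11.15.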

Additional observations from a re-analysis of the deposited data

Results flagged for a closer look

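In 2 of 24 sets of 4 libraries (8 genes in 3 groups) a library stood apart from the other 3 of its group by Dixon's 95% limit, which chance exceeds in about 1 of 20 sets. Cpa3 had a normalized count of 806 in CITED replicate 2, against 708 to 714 in the other CITED libraries. Ms4a2 had a normalized count of 657 in MDSC replicate 4, against 494 to 519 in the other MDSC libraries. Without these libraries the directions of both genes in CITED against MDSC were the same as with them.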

How the results depend on the processing

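The falls of Mcpt8, Prss34, Fcer1a, Ms4a2, and Hdc in CITED against MDSC passed an adjusted p of 0.05 in all 22 alternatives, and in CITED against MDSC-NP-Blk this held for these genes and Cpa3. The number past both thresholds was less stable. For CITED against MDSC it was 1 (Ms4a2), 3 with library size alone, 2 with DESeq2, with the 8 libraries of the comparison, with the length correction, and without MDSC-NP-Blk replicates 2 and 3, 1 to 2 in fits without 1 library, and 6 by adjusted p alone. The main value of Fcer1a (-0.99) lies near the threshold. For CITED against MDSC-NP-Blk it was 3, 6 by adjusted p alone, and 2 to 4 without 1 library, as Hdc was -0.97 without MDSC-NP-Blk replicate 3. For MDSC-NP-Blk against MDSC it was 0 in all alternatives that kept the fold threshold and 4 by adjusted p alone. The latter count was 2 with library size alone (Hdc higher, Ms4a2 lower) and 1 with the length correction (Hdc). In that comparison the sign turned for Mcpt8 (-0.01), Prss34 (-0.01), and Fcer1a (-0.09) with library size alone and for Fcer1a (-0.02) with the length correction. The sign of Gzmb in CITED against MDSC turned without MDSC replicate 4 (0.44) and without CITED replicate 4 (0.25), in a range of -0.79 to 0.44 without 1 library. The cause of these shifts was not tested. The replicate block gave 1, 0, and 3 genes past both thresholds in the 3 comparisons and 6, 4, and 6 by adjusted p alone, as without it; libraries with the same number did not deviate together (correlations of -0.06 to 0.14). Depth limits Gzmb and Il4.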
